A study of Mus musculus with 8 samples.

Results

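The neural intermediate filament genes were followed in the striatum of newborn mice that lack the transcription factor Ctip2. They are 8 genes, taken by their platform gene symbol: Nefl, Nefm, Nefh, Ina, Prph, Nes, Vim and Gfap. They are read by 20 of the 45037 probe sets of the array, and are 8 of the 18193 genes that a probe set with a single symbol names. Nefl and Nefm were chosen by their higher log2 values in the null arrays, so their values describe that choice and their difference carries no test here. The other 6 genes complete the neural members of the family, in a set drawn up with earlier results of these data known, and their 17 probe sets were tested.

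Intermediate filaments are rope-like polymers of coiled-coil proteins, and each cell type builds them from its own subset of the family. In neurons the light, medium and heavy neurofilament chains (Nefl, Nefm, Nefh) assemble together with alpha-internexin (Ina), fill the axon and set its calibre. Alpha-internexin appears early in young neurons, the light and medium chains follow, and the heavy chain accumulates late, as axons mature. Peripherin (Prph) belongs mainly to neurons with axons outside the brain, nestin (Nes) to neural progenitors, vimentin (Vim) to radial glia and to vascular and mesenchymal cells, and glial fibrillary acidic protein (Gfap) to astrocytes.

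RNA was taken from tissue punches of the striatum at postnatal day 0 in mice of strain BALB/c. The groups were 3 wild type animals, 4 Ctip2 null mutants and 1 Ctip2 heterozygote, with a separate array for each animal. Ctip2 carries the symbol Bcl11b on the array. Neither the deleted part of the gene nor the cells that lost it is named in the sources used here, and the heterozygote has no replicate. All levels are log2 expression values made by the authors with RMA, on which a difference of 1 is a doubling, and their precision is limited by groups of 3 and 4 arrays.

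The arrays fitted their labels on the targeted gene, since the 4 Bcl11b probe sets were 2.16-fold to 3.16-fold lower in the null group without overlap (limma adjusted p from 0.0011 to 0.0152). The heterozygote lay within or above the wild type range on each of them. Markers of medium spiny neurons, the projection neurons of the striatum, were present: averaged over the 7 tested arrays, 1 of 20 read below the median probe set. The same count was 0 of 17 for radial glia and progenitor markers and 1 of 16 for astrocyte markers. It was 9 of 13 for cortical projection neuron markers. A low count is therefore not particular to medium spiny neurons. Array medians lay between 6.21 and 6.35. The spread of values differed between arrays, with an SD of 1.84 to 1.97 in wild type, 2.06 in the heterozygote and 1.90 to 2.05 in null arrays. Probe sets of like brightness to a member were those with means within 0.5 log2 units of its own. For the probe sets of Nefl, Nefm and Ina, the median null minus wild type difference among these was 0.07 to 0.21. It was -0.13 for Nefh and -0.08 over all probe sets. In such bulk tissue, fewer cells of a type and less RNA per cell, or more of either, cannot be told apart.

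The neurofilament light chain gene Nefl had a separate, higher band of values in the null animals on both of its probe sets. On 1426255_at the wild type arrays read 8.49, 8.05 and 8.57, the heterozygote 9.30, and the null arrays 11.28, 11.37, 10.48 and 10.71. The lowest null array stood 1.91 above the highest wild type array. The group means were 8.37 ± 0.28 (SD, n = 3) and 10.96 ± 0.43 (SD, n = 4), a difference of 2.59 or 6.03-fold. On 1454672_at the wild type arrays read 8.54, 7.17 and 8.35, the heterozygote 9.66, and the null arrays 11.01, 11.23, 11.27 and 10.55. Here wild type 2 lay well below the other wild type arrays and the gap between the groups was 2.01. The means were 8.02 ± 0.74 (SD, n = 3) and 11.02 ± 0.33 (SD, n = 4), a difference of 2.99 or 7.97-fold. Over all probe sets these differences ranked 11 and 6 from the highest, and Nefl ranked 7 among genes.

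Nefm, which encodes the medium chain, has 1 probe set, 1422520_at, which showed a like separation. Wild type arrays read 7.05, 6.23 and 7.37, the heterozygote 7.77, and null arrays 9.46, 9.50, 9.33 and 8.49. The 3 null arrays other than null 4 lay close together, and null 4 was still 1.12 above the highest wild type array. The means were 6.88 ± 0.59 (SD, n = 3) and 9.19 ± 0.48 (SD, n = 4), a difference of 2.31 or 4.96-fold, which ranked 13 among genes. The heterozygote array lay between the groups on all 3 probe sets of Nefl and Nefm. It stood at 35.8% and 54.7% of the way from the wild type to the null mean on the Nefl probe sets and at 38.3% on Nefm. With the spread of each array as a covariate the fitted differences were 2.50 and 2.44 on the Nefl probe sets and 1.87 on Nefm.

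**Figure D1:**
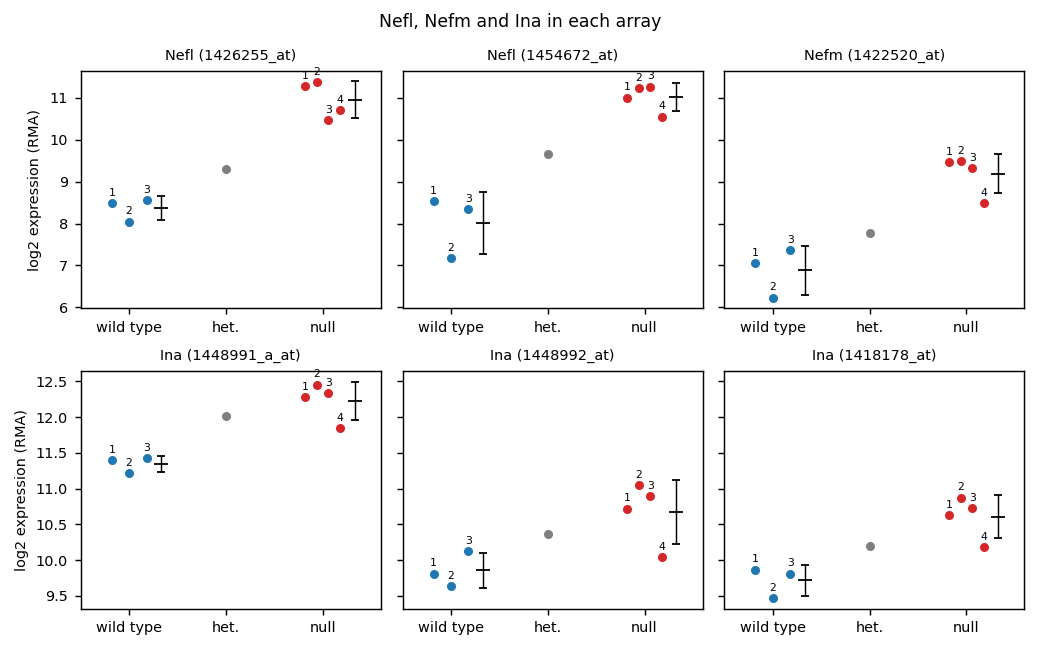
Log2 expression of the probe sets of Nefl, Nefm and Ina in each of the 8 arrays (vertical axis), by group (horizontal axis); numbers beside points are animals, and the bar to the right of a group is its mean ± SD. The null points of Nefl and Nefm lie above every wild type point with the heterozygote between the groups, while the 3 Ina probe sets show smaller gaps, and null 4 lies below wild type 3 on 1448992_at.

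Ina, the gene of alpha-internexin, rose in the null arrays on 2 of its 3 probe sets. On its brightest probe set, 1448991_a_at, wild type arrays read 11.39, 11.22 and 11.43, the heterozygote 12.01, and null arrays 12.28, 12.45, 12.34 and 11.85. The groups did not overlap, and null 4 was again the lowest null array. The means were 11.35 ± 0.11 (SD, n = 3) and 12.23 ± 0.27 (SD, n = 4), a 1.85-fold rise (limma adjusted p = 0.0227, 95% interval of the log2 difference 0.53 to 1.24). On 1418178_at wild type arrays read 9.87, 9.47 and 9.81, the heterozygote 10.20, and null arrays 10.63, 10.87, 10.73 and 10.18. This probe set also rose without overlap, by 1.85-fold (adjusted p = 0.0377). On 1448992_at wild type arrays read 9.81, 9.63 and 10.12, the heterozygote 10.37, and null arrays 10.72, 11.04, 10.89 and 10.04. There null 4 lay below wild type 3, and a difference of like size, 0.82, did not pass (adjusted p = 0.107).

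Of the 17 tested probe sets these 2 of Ina passed as higher, 0 passed as lower and 15 did not pass. At an unadjusted limma p under 0.05, as by a SAM score beyond 2 (the study's own rule), 3 were higher, all of Ina, and 0 lower. Over all probe sets 2.32% passed after adjustment, 1.87% as higher and 0.453% as lower. Without adjustment 10.9% were higher and 8.74% lower, and by SAM 10.3% and 12.7%. Groups without overlap were seen with null above on 2 of the 17 and with null below on 0, against 7.70% and 8.85% of all probe sets. The median difference of the 17 was -0.07. The heterozygote lay nearer to the null than to the wild type mean on the 3 Ina probe sets, at 75.0%, 63.0% and 54.5% of the distance in the order of brightness. The Ina call was not stable. On the brightest probe set it was lost with the array spread as a covariate (a difference of 0.66, adjusted p = 0.124) and when the heterozygote joined the controls (0.72, adjusted p = 0.197). It was also lost without wild type 2 or 3 or without null 1, 2 or 3, with limma adjusted p values of 0.0988, 0.0810, 0.0733, 0.0780 and 0.0530. The difference was positive on all 3 Ina probe sets in each of these fits.

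The arrays of lowest spread in each group, wild type 2 and null 4, were also the lowest arrays of their group on Nefm, on the 3 Ina probe sets and on 1454672_at of Nefl. On 1426255_at of Nefl null 3, the null array of widest spread, was the lowest. Beyond the covariate fits given above, the part of array spread in these values was not tested.

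The start of the Ina gene is shown because Ina is the member that passed a test, beside that of Vim, which did not. Each sequence is the 250 bases before the transcription start in RefSeq, build GRCm38.p6, read 5′ to 3′ on the plus strand, Ina at chr19:47014431-47014680 and Vim at chr2:13574061-13574310. Capitals mark matches on either strand to the TATA box TATAAA, the CCAAT box CCAAT, the GC box GGGCGG and TGACCA, a motif described for the paralogue Bcl11a. The motifs searched do not overlap each other in these windows.
Ina: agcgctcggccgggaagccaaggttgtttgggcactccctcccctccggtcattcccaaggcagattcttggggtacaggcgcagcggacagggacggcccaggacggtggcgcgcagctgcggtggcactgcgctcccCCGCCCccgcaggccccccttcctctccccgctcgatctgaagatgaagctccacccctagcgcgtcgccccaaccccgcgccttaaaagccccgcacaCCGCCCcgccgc
Vim: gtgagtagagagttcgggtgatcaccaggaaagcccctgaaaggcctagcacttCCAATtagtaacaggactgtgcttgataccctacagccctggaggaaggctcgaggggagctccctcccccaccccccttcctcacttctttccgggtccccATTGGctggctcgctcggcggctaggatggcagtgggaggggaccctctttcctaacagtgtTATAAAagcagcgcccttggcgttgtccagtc

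The Ina window holds 2 GC boxes, both on the minus strand, with no TATA box and no CCAAT box, and 70.8% of its bases are G or C. The Vim window holds 1 TATA box and 2 CCAAT boxes, 1 on each strand, with no GC box and 58.4% G or C. TGACCA was found in neither, nor in the windows of Prph, Nes and Gfap. Over the 32851 windows of this length in the table, 12.4% hold TATAAA, 33.8% CCAAT, 32.7% GGGCGG and 11.4% TGACCA. The letters describe these windows and say nothing about binding.

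Nefh, the heavy chain gene, read below the array median in every animal and did not pass. Wild type arrays read 5.85, 6.09 and 5.38, the heterozygote 5.55, and null arrays 5.13, 5.53, 5.32 and 5.61. The groups overlapped. The means were 5.78 ± 0.36 (SD, n = 3) and 5.39 ± 0.22 (SD, n = 4), with a 95% interval of the difference of -0.80 to 0.04 (adjusted p = 0.285). The interval, unadjusted for the number of probe sets, leaves out a rise of more than 0.04 on this probe set. As it rests on 1 dim probe set, it does not by itself exclude a rise of Nefh RNA.

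Prph, the peripherin gene, gave 4 probe sets with group means between 5.55 and 7.09, and the groups overlapped on each. On the brightest, 1449796_at, wild type arrays read 6.90, 7.30 and 7.06, the heterozygote 6.63, and null arrays 6.97, 6.81, 6.65 and 7.10. The heterozygote was lower than every wild type array on all 4 probe sets. Differences ran from -0.20 to -0.05, and the 95% intervals from -0.54 at the low end to 0.30 at the high end (adjusted p from 0.436 to 0.838).

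Nes, the nestin gene of neural progenitors, stood above the array medians on 2 of its 3 probe sets and did not pass on any. On 1418289_at wild type arrays read 8.80, 9.24 and 9.34, the heterozygote 8.47, and null arrays 9.10, 9.07, 8.57 and 8.99. On 1449022_at wild type arrays read 8.57, 8.88 and 8.96, the heterozygote 8.94, and null arrays 8.88, 8.93, 8.99 and 9.05. The groups overlapped on both and the differences had opposite signs, -0.20 and 0.16 (adjusted p = 0.513 and 0.474), with 95% intervals of -0.60 to 0.20 and -0.13 to 0.46. The third, 1453997_a_at, stood below the array medians, with a 95% interval of -0.32 to 0.31 (adjusted p = 0.990).

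Vim, the vimentin gene, stood above the array medians, and its probe sets disagreed in sign. On 1450641_at wild type arrays read 9.53, 9.18 and 9.58, the heterozygote 9.99, and null arrays 9.61, 10.12, 9.61 and 9.50. On 1438118_x_at wild type arrays read 9.05, 9.02 and 9.21, the heterozygote 8.84, and null arrays 9.02, 9.30, 8.37 and 9.07. Null 2 was the highest array on both, and the heterozygote was above the wild type arrays on the first and below them on the second. The differences were 0.28 and -0.15, and -0.20 on the third probe set, 1456292_a_at (adjusted p = 0.374, 0.656 and 0.516). Probe sets with the ending x_at hold probes that can match other transcripts. The 95% intervals ran from -0.62 to 0.67 over the 3 probe sets. On each probe set, a change within its own interval was not excluded.

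Gfap, the astrocyte filament gene, stood above the array medians on 1 probe set and lower on the other two. On its brightest probe set, 1426508_at, wild type arrays read 7.40, 7.67 and 7.33, the heterozygote 7.06, and null arrays 7.24, 7.03, 7.18 and 7.40. The groups overlapped, since null 4 lay above wild type 3, and the difference of -0.25 did not pass (adjusted p = 0.325, 95% interval -0.56 to 0.06). The other probe sets differed by 0.12 and -0.07 (adjusted p = 0.648 and 0.850), the last of them with all arrays between 3.54 and 4.31.

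**Figure D2:**
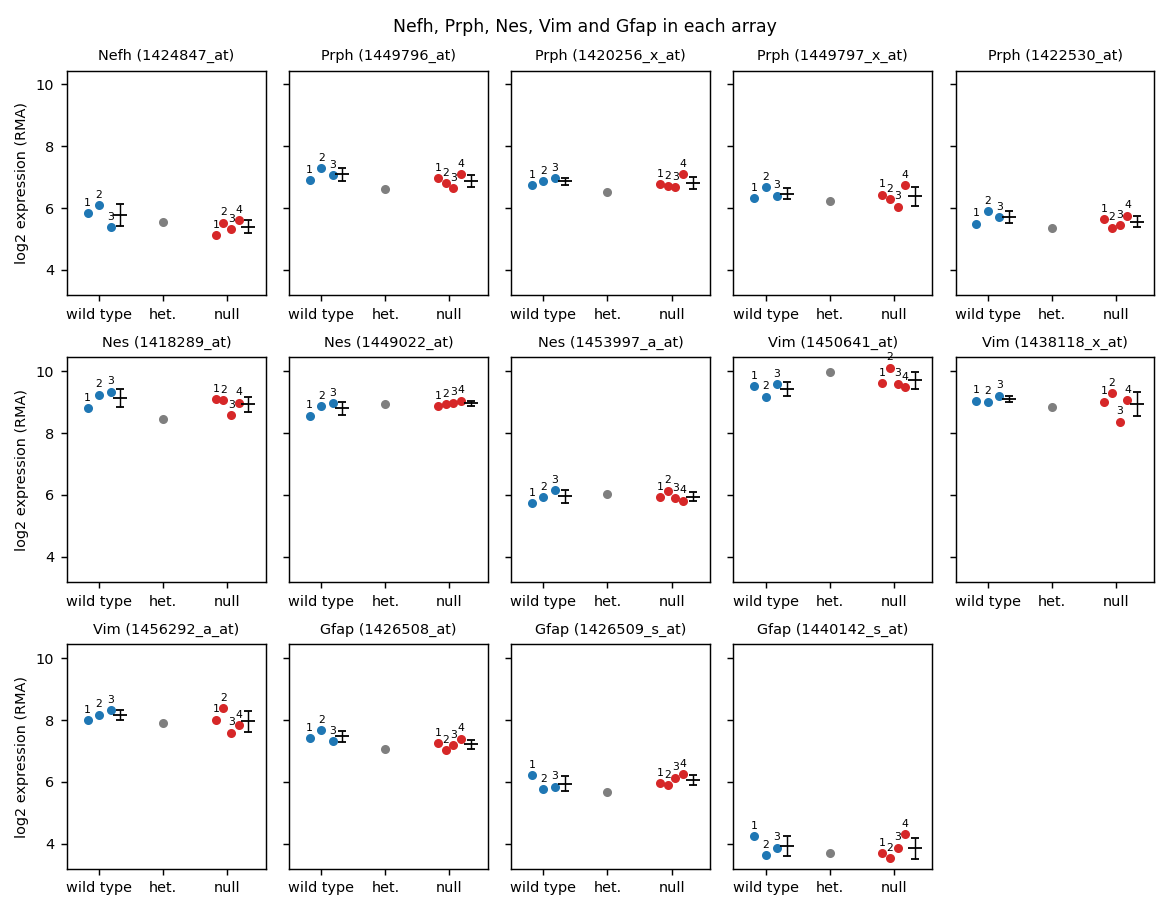
Log2 expression of the 14 probe sets of Nefh, Prph, Nes, Vim and Gfap in each of the 8 arrays, drawn as in the plot of Nefl, Nefm and Ina and with a shared vertical axis. Wild type and null points overlap in every panel, and the null minus wild type differences lie between -0.38 and 0.28.

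**Figure D3:**
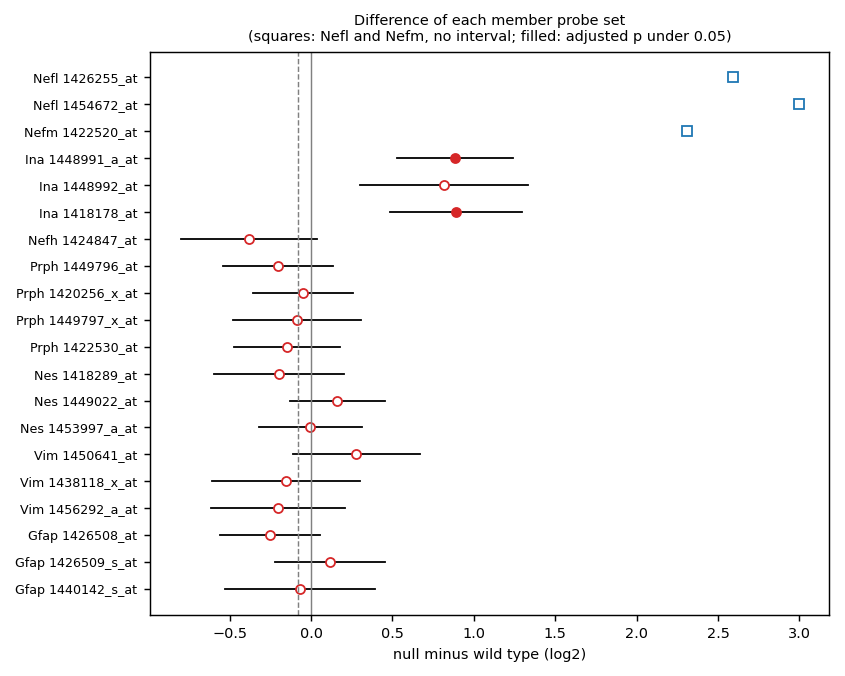
Null minus wild type difference (log2) of each of the 20 probe sets, with 95% intervals from limma for the 17 tested ones and none for Nefl and Nefm, which were picked for this difference; the dashed line is the median of all probe sets, -0.08. Nefl and Nefm lie between 2.31 and 2.99, Ina between 0.82 and 0.89, and the other 14 probe sets between -0.38 and 0.28.

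Whether the tested genes differed from each other in their response was asked through ratios within each array, using the brightest probe set of each. The log2 ratio of Ina to Vim went from 1.91 ± 0.10 (SD, n = 3) in wild type to 2.52 ± 0.21 (SD, n = 4) in null arrays, and that of Ina to Nes from 2.22 ± 0.33 (SD, n = 3) to 3.30 ± 0.38 (SD, n = 4). Both reached 0.0286, the smallest p that the 35 splits of 7 arrays allow in a two-sided exact permutation test. After Benjamini-Hochberg adjustment over the 15 pairs of the 6 genes, 0 passed, with 0.171 as the lowest adjusted p. With 15 pairs and a smallest p of 0.0286, a few pairs at that floor cannot pass this adjustment. The count of 0 therefore does not show that the genes responded alike. These ratios were added after the values were seen.

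Nefl and Nefm lie next to each other on chromosome 14, with only a pseudogene annotated between them. Of their nearest neighbours with a probe set, Dock5, a guanine nucleotide exchange factor gene on the Nefl side, read 5.71, 5.58 and 5.76 in wild type, 5.70 in the heterozygote and 6.43, 6.42, 7.02 and 6.09 in null arrays. These groups did not overlap, as for 8.59% of all genes with null above and 9.62% with null below, and the difference of 0.81 did not pass (limma adjusted p over genes = 0.0563). It passed in 5 of 16 alternatives. Kctd9 beyond it and, on the Nefm side, the noncoding A230070E04Rik and Adam7 differed by -0.06, -0.16 and -0.09, with overlap in each (adjusted p = 0.758, 0.437 and 0.664).

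The genes whose profile came nearest to those of the neurofilament pair were found by the root mean square difference over the 8 arrays, each gene taken relative to its wild type mean. For Nefm the nearest of 18185 other genes was Lonrf3, a RING finger protein gene, at 0.22 log2 units, followed by Lancl3 at 0.26, the pro-apoptotic gene Bcl2l11 at 0.34, the semaphorin co-receptor gene Nrp1 at 0.35 and the neuronal RNA-binding protein gene Elavl4 at 0.38. For Nefl the nearest were Lonrf3 at 0.35, Lancl3 at 0.42, Crim1, which encodes a membrane protein that binds bone morphogenetic proteins, at 0.45, Dlk1 at 0.46 and the neurotensin gene Nts at 0.47. The distance between Nefl and Nefm was 0.37, so that Nefm ranked 2 for Nefl, after Lonrf3, and Nefl ranked 5 for Nefm. Ina was 1.24 from Nefl. On Nts the heterozygote stood at 10.5% of the way from the wild type to the null mean, and on Crim1 and Lancl3 at 65.7% and 62.7%, with Nefl and Nefm between these. The measure follows the size of a difference as well as its pattern, and nothing is read from it about shared function. It also rests on 1 probe set per gene. Over 17 alternatives the null minus wild type difference ran from 1.19 to 2.59 on Lonrf3 and from 0.87 to 2.53 on Bcl2l11. On Nts the range was narrower, 2.54 to 2.81. The distances are given for the main values only.

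**Figure D4:**
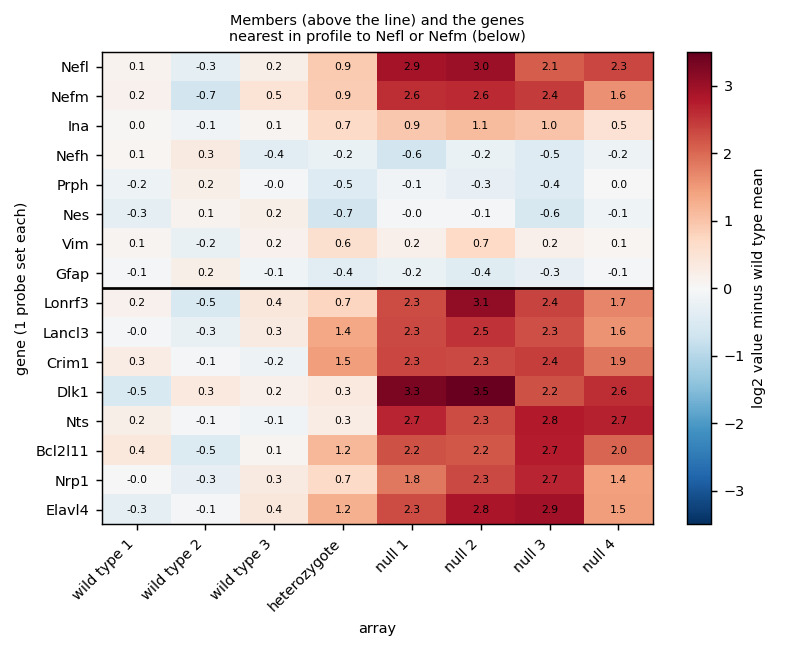
Log2 values minus the wild type mean of each gene (colour and printed value, from blue for lower to red for higher) in the 8 arrays (columns) for the 8 members and the 8 genes nearest in profile to Nefl or Nefm (rows, 1 probe set each). The nearest genes read higher in all 4 null arrays, which follows from their choice by likeness to Nefl or Nefm. Nefh, Prph, Nes, Vim and Gfap stay within 1 log2 unit of their wild type mean.

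Beyond the members, the other intermediate filament genes, among them lamins, synemin, desmin and keratins, gave no call. Of 19 measured, 0 rose and 0 fell at an adjusted p under 0.05 over genes, where 3.65% of all genes passed, 2.86% as higher and 0.786% as lower. At an unadjusted limma p under 0.05 the counts were 0 higher and 5 lower, and by SAM also 0 and 5. Over all genes the unadjusted rule called 12.2% higher and 9.12% lower, and SAM 11.1% and 12.9%; these shares are the background of every list below. The median difference of the 19 genes was -0.17, against -0.14 over genes of like brightness and -0.08 over all genes. Synm, the gene of synemin, a filament protein that assembles with vimentin, differed most, from 6.74 ± 0.25 (SD, n = 3) to 6.14 ± 0.22 (SD, n = 4), without overlap (adjusted p = 0.0861). It passed with array spread as a covariate (adjusted p = 0.0483) and with the mean of its probe sets (adjusted p = 0.0105), and the heterozygote read 7.45, above the wild type mean.

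Among linkers, kinases, turnover factors and motors of neuronal filaments, 1 of 26 measured genes rose and 0 fell, which is near the share over all genes. Without adjustment (limma p under 0.05) and by SAM, 8 were higher and 1 lower. The median difference was 0.24. Over the 4018 genes of like brightness, between the quartiles of this list, the median difference was 0.17. Macf1, which encodes a spectraplakin that links microtubules and actin, rose from 9.48 ± 0.26 (SD, n = 3) to 10.41 ± 0.35 (SD, n = 4), by 1.90-fold (adjusted p = 0.0395). The heterozygote read 10.50 on it, above the null mean, and the call was lost in 10 of 17 alternatives, among them array spread as a covariate (adjusted p = 0.175) and the fits without wild type 2 or 3 or null 1, 2 or 3 (adjusted p from 0.0571 to 0.154). Macf1 differed by 0.39 with the mean of its probe sets (limma adjusted p = 0.0522). The related linker gene Dst, chosen after its values were seen, differed by 1.03 (adjusted p = 0.0631). Kif5a and Kif5c, motors that carry neurofilaments along axons and were chosen likewise, differed by 0.33 and 0.49 (adjusted p = 0.148 and 0.0684).

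Among genes of axon growth and the neuronal cytoskeleton, of 34 measured genes 5 rose, 1 fell and 28 did not pass, where 21 were higher and 1 lower at an unadjusted limma p under 0.05 and by SAM. The median difference was 0.40, against 0.15 over the 1044 genes of like brightness. Chl1, an L1 family adhesion molecule of growing axons, rose from 10.21 ± 0.15 (SD, n = 3) to 11.26 ± 0.29 (SD, n = 4), by 2.07-fold (adjusted p = 0.0116), with the heterozygote at 11.20. Cntn2, an axonal contactin, rose 1.72-fold (adjusted p = 0.0395), with the heterozygote at 7.35 beside a wild type mean of 7.32. Of 17 alternatives, Chl1 lost its call in 5 and Cntn2 in 12. With the mean of its probe sets, Chl1 differed by 0.43 (limma adjusted p = 0.0653). The other genes that rose were Dcx, the doublecortin gene of young neurons, Dpysl5 and Stmn4, by 1.58-fold, 1.55-fold and 1.55-fold (adjusted p = 0.0421, 0.0303 and 0.0454); these complete the count and fall outside the rule for named genes. The gene that fell was Thy1, a surface glycoprotein of maturing neurons, from 9.36 ± 0.39 (SD, n = 3) to 7.16 ± 0.49 (SD, n = 4), by 4.61-fold (adjusted p = 0.0032). Tubb3, the neuronal beta-tubulin gene, differed by 0.05 (adjusted p = 0.790). The count of genes that rose was 1 with array spread as a covariate, 0 with the heterozygote among the controls, 0 without wild type 1 and null 2, 0 without wild type 2 or 3, 1 without null 1 or 2, 1 after quantile normalization, 2 without null 3 and 2 with centred arrays. Thy1 kept its call in each of these fits.

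**Figure D5:**
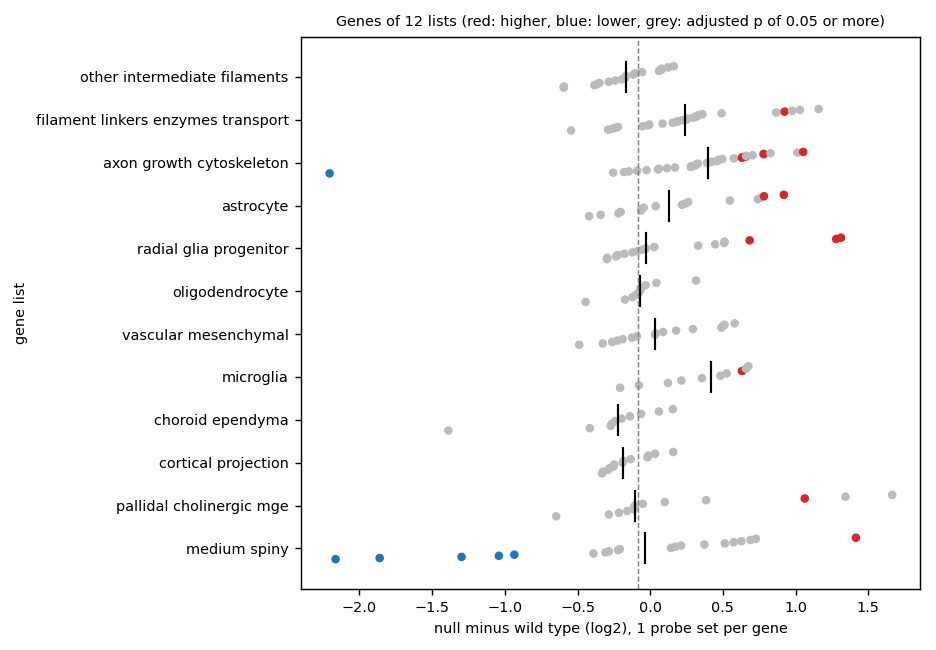
Null minus wild type difference (log2, 1 probe set per gene) of the measured genes of 12 lists (rows), coloured by the limma call over all genes; the short vertical line is the median of a list and the dashed line that of all genes. Other intermediate filament genes hold no call, and the axon growth list holds 5 higher genes and 1 lower gene.

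Markers of the cell types that carry each filament were read beside the members. Of 16 astrocyte markers, 2 rose, Glul and Slc1a2 by 1.89-fold and 1.72-fold (adjusted p = 0.0166 and 0.0392), and of 17 radial glia and progenitor markers 3 rose, Prom1 2.48-fold, Id4 2.43-fold and Sox2 1.61-fold (adjusted p = 0.0111, 0.0058 and 0.0377), while 0 of either list fell. At an unadjusted limma p under 0.05, and by SAM, 3 astrocyte markers were higher and 2 lower, and 6 progenitor markers were higher and 0 lower. The mean level of the astrocyte list per array was 7.59 to 8.05 in wild type and 7.85 to 8.23 in null arrays, and that of the progenitor list 8.40 to 8.46 and 8.59 to 8.77. The median difference of the progenitor list was -0.03, against 0.07 over genes of like brightness, so its higher mean was not shared by most members. For the astrocyte list the median difference was 0.13, against -0.01. The filament genes of these cells, Gfap, Nes and Vim, did not pass, as given above. With array spread as a covariate, or with the heterozygote among the controls, 0 astrocyte markers and 1 progenitor marker were called. The astrocyte count was also 0 when wild type 2, wild type 3 or null 2 was left out, and 1 without null 1, without null 3, without wild type 1 and null 2, with centred arrays or with the mean of probe sets. The progenitor count was also 1 without wild type 3. Of 17 alternatives, Sox2 lost its call in 11, Slc1a2 in 10, Glul in 5, Prom1 in 2 and Id4 in 1. Slc1a2 differed by 0.21 with the mean of its probe sets (limma adjusted p = 0.285).

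Among markers of neurons from neighbouring regions, of 13 cortical projection neuron markers 0 rose and 0 fell, 9 stood below the median probe set, and their mean level was 6.11 to 6.14 in wild type, 5.81 in the heterozygote and 5.91 to 6.04 in null arrays. At an unadjusted limma p under 0.05, and by SAM, 0 were higher and 0 lower. Eomes differed most among them, by -0.33 (adjusted p = 0.262). The median difference of the cortical list was -0.19, against -0.16 over genes of like brightness. Of 13 pallidal, cholinergic and medial eminence markers Lhx6, a homeobox gene of medial eminence neurons, alone rose, 2.09-fold (adjusted p = 0.0386). Its call was lost in 10 of 17 alternatives, among them the covariate fit, centred arrays, the heterozygote among the controls and the fits without wild type 1, 2 or 3 or null 1, 2 or 3 (adjusted p from 0.0596 to 0.314). By SAM, and at an unadjusted limma p under 0.05, 3 of the 13 were higher and 1 lower. Chat, the enzyme gene that defines cholinergic neurons, differed by 0.10 (adjusted p = 0.706). The mean level of that list was 6.84 to 7.21 in wild type and 7.12 to 7.31 in null arrays. Of the remaining lists, 0 of 10 oligodendrocyte, 0 of 16 vascular and mesenchymal and 0 of 10 choroid plexus and ependyma markers were called, with the largest differences on Mog (-0.44, adjusted p = 0.137), Rgs5 (0.58, adjusted p = 0.122) and Ttr (-1.39, adjusted p = 0.536). Ttr, the choroid plexus transthyretin gene, read 13.34, 9.37 and 11.44 in wild type, 7.44 in the heterozygote and 7.11, 13.44, 8.27 and 11.17 in null arrays, so wild type 1 and null 2 stood high within their groups. Its difference ran from -2.53 to -0.41 with single arrays left out, and the 2 extremes came without null 2 and without wild type 1. Without both of these arrays the differences were 2.51 and 3.18 on the Nefl probe sets and 2.29 on Nefm. At an unadjusted limma p under 0.05, 0 oligodendrocyte, 4 vascular and mesenchymal and 0 choroid plexus markers were higher and 1 of each list was lower; SAM gave 1, 2 and 0 higher and 1 of each lower. Of 10 microglia markers C1qa, a complement gene, rose 1.55-fold (adjusted p = 0.0495), a call lost in 13 of 17 alternatives. By both looser rules, 6 of the 10 were higher and 0 lower, and their median difference was 0.42, against -0.11 over genes of like brightness. The mean level of that list was 6.85 to 6.97 in wild type and 7.02 to 7.50 in null arrays. The part of other cell types in the neurofilament values was not tested.

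Of 20 medium spiny neuron markers 5 fell, namely Gpr6, Arpp21, Ppp1r1b, Pde10a and Drd1. Gpr6, an orphan receptor gene, fell 4.48-fold and Arpp21, a phosphoprotein gene, 3.63-fold (adjusted p = 0.0335 and 0.0159). Of 17 alternatives, Gpr6 lost its call in 7 (limma adjusted p up to 0.109) and Arpp21 in 3. The Arpp21 difference ran from -2.11 to -0.763 over them, so the size of its fall depended on the processing. The list held 1 gene that rose, the GABA-synthesising enzyme gene Gad1 by 2.67-fold (adjusted p = 0.0032), a call lost in 1 of 17 alternatives. The count that fell was 1 with array spread as a covariate or without wild type 2, 2 without null 2, and 3 without null 1, without null 3, with centred arrays or with the heterozygote among the controls. By the looser rules, 6 of the 20 were higher and 6 lower at an unadjusted limma p under 0.05, and 6 and 7 by SAM. The median difference of this list was -0.03, against 0.16 over genes of like brightness. The heterozygote was above the wild type mean on Arpp21 and near the null mean on Gad1, with 11.17 against 11.33. On Nefl and Nefm it lay between the groups.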

How the data were processed

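Each of the 8 arrays held RNA of 1 mouse. The series' design text states that the authors normalized Affymetrix signals by RMA (Bioconductor), and each probe set's deposited value is on a log2 scale. No version of RMA and no filter is named in the sources used here. The spread of the deposited values differed between arrays. Values were used as deposited, and scanner files were not used here.

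The platform annotation gives a single symbol for 34945 of 45037 probe sets, and symbols were updated through the RefSeq gene table (GRCm38.p6). A gene was represented by its brightest probe set over the 7 wild type and null arrays. These arrays were compared with limma 3.58.1 in R 4.3.3 (lmFit, eBayes, Benjamini-Hochberg over all probe sets or all genes, threshold 0.05), a fit checked on simulated data. The heterozygote entered no main test. Ratios were tested with scipy 1.17.1 and figures drawn with matplotlib 3.10.9.

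The members, the 12 lists and the alternatives were chosen with earlier results of these data known; the ratios within arrays and the medians at like brightness were added after the values were seen. Named were all members, the 5 nearest profiles of Nefl and of Nefm, the 2 nearest measured genes on each side of the pair, and from each list up to 3 called members of largest difference, or else the 1 of largest difference; others are marked or complete a small count. Of 216 listed genes 204 were measured. Promoter windows were found for Ina, Prph, Nes, Vim and Gfap among the members.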

Additional observations from a re-analysis of the deposited data

Results flagged for a closer look

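On Nefm the value of null 4, 8.49, stood apart from the other 3 null arrays, which lay at 9.33 or above. The gap took a share of 0.831 of the range of the group, just over the 95% limit of Dixon's ratio for 4 samples. These null values are among those by which Nefm was chosen, so the gap is given as a description of them. Chance alone passes this limit in about 1 of 20 groups, and 20 probe sets were examined in this way. Null 4 was also the lowest null array on the 3 probe sets of Ina. Without it the Nefm difference was 2.55.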

How the results depend on the processing

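The differences of Nefl and Nefm kept their direction in every alternative run, from 2.36 to 2.75 on 1426255_at, from 2.44 to 3.26 on 1454672_at and from 1.87 to 2.56 on Nefm. Over the 20 member probe sets, 270 of 315 alternative values kept direction and side of the threshold, 17 lost a call and 3 gained one, all of these on Ina, 24 changed sign and 1 moved by more than the spread between replicates (2.44 with the array SD as a covariate, on Nefl 1454672_at). For the 31 other named genes the counts were 416 of 522 kept, 91 lost, 10 gained and 5 with changed sign. The cause was not tested for any of these changes. No alternative background correction was run.

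Member probe sets called higher numbered 2, against 1 with arrays centred on their median and 0 with the heterozygote as control, the array SD as a covariate or wild type 1 and null 2 left out, and 0 to 3 with single arrays left out (0 without wild type 2, wild type 3, null 1, null 2 or null 3); called lower were 0 in every fit. Over the whole array 840 higher and 204 lower became 4630 and 5717 with a SAM d cut-off of 2, 548 and 124 with centred arrays, 821 and 318 after quantile normalization, 110 and 96 with the heterozygote as control, 189 and 93 with the SD covariate, and 412 and 62 without wild type 1 and null 2. The share of higher calls was 80.5%, and 81.5% with centred arrays, 72.1% after quantile normalization, 67.0% with the SD covariate, 53.4% with the heterozygote as control and 44.7% with SAM. With single arrays left out these counts ran from 210 to 1733 and from 76 to 443; leaving out any 1 of the 7 arrays moved the higher count by over 1.5 times. Genes of the 12 lists called higher, 14, became 56 with SAM, 7 with centred arrays, 9 after quantile normalization, 1 with the heterozygote as control, 3 with the SD covariate, 6 without wild type 1 and null 2 and 22 with the mean of a gene's probe sets, and 2 to 21 with single arrays left out; called lower, 6, became 20 with SAM and 2 to 7 with single arrays left out.

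With the replicate number as a block, 1696 probe sets were higher and 212 lower, and 3 Ina probe sets were called, with 0.0142, 0.0176 and 0.0173 as adjusted p values from limma. Same-numbered arrays shared only a number: their deviations from the group means correlated at -0.25, -0.31 and -0.17, and null 4 has no partner.

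Values that changed sign were all uncalled. With the SD covariate they were 0.042, 0.15, 0.22 and 0.085 on the Prph probe sets 1449796_at, 1420256_x_at, 1449797_x_at and 1422530_at, 0.040 and 0.0038 on Nes 1418289_at and 1453997_a_at, and 0.011 on Kctd9. With centred arrays they were 0.011 on Prph 1420256_x_at and 0.057 on Nes 1453997_a_at. After quantile normalization they were -0.033 and 0.064 on Nes 1449022_at and 1453997_a_at, 0.020 on Gfap 1440142_s_at and 0.0088 on Kctd9. With the heterozygote as control they were 0.035 on Prph 1420256_x_at and 0.031 on Adam7, with the block 0.040 on Nes 1453997_a_at, without wild type 1 and null 2 0.20 on Gfap 1440142_s_at, and with the mean of probe sets 0.24 on A230070E04Rik. With single arrays left out the ranges were -0.14 to 0.0021 on Prph 1420256_x_at, -0.21 to 0.022 on Prph 1449797_x_at, -0.11 to 0.10 on Nes 1453997_a_at, -0.27 to 0.038 on Vim 1438118_x_at, -0.22 to 0.099 on Gfap 1440142_s_at and -0.12 to 0.014 on Kctd9.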
